A study of Homo sapiens with 6 samples.

Results

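CD69 is a C-type lectin-like receptor of the lymphocyte surface, and it was set here against 5 lectin-like receptor genes that lie near it in the natural killer gene complex. The members were the probe sets whose platform annotation names CD69, CLEC2B, CLEC2D, KLRB1, KLRF1 or KLRG1. There were 6 such probe sets, 1 per gene, among 21448 in the table and among 17687 genes with a named probe set. CD69 was chosen by its difference in signal between CXCL12 and untreated arrays, which was known to be large, so that difference is given as a description, and the call that the fit across all probe sets makes on it is stated for completeness and supports nothing here.

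RNA was hybridised to 6 Affymetrix arrays and came from Jurkat, a widely used line of human leukaemic T cells (T-ALL). All cells, controls included, were cultured with 10% serum and then kept without serum for 90 min. Untreated cells (n = 3 arrays) received nothing further, and CXCL12 cells (n = 3 arrays) received the chemokine CXCL12 at 100 ng/ml for 15 min. No array is labelled as a mock addition for 15 min, so the chemokine and the handling of its addition cannot be told apart. The titles call the samples biological replicates but do not say that they came from separate cultures, so the spread given here may be partly technical. The line is a single leukaemic clone, and the measurement is of bulk RNA, so more cells carrying a transcript and more transcript per cell cannot be told apart.

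The natural killer gene complex is a stretch of the short arm of chromosome 12 that holds genes for lectin-like receptors of natural killer cells, T cells and myeloid cells. Several of its products bind each other as ligand and receptor: CLEC2D, also called LLT1, is the ligand of KLRB1 (CD161), and CLEC2B, also called AICL, is the ligand of KLRF1 (NKp80). CD69 is best known as a marker that appears early on activated lymphocytes, and at the membrane it binds the sphingosine 1-phosphate receptor S1PR1 and withdraws it from the surface. KLRG1 is an inhibitory receptor for cadherins on differentiated T and natural killer cells.

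The values are log2 signals, so a difference of 1 is a doubling, and a signal of one probe set cannot be compared in level with that of another. A probe set was called dim where its mean over the 6 arrays was below the 25th percentile of the table, a log2 signal of 4.44, and the fit over all other probe sets (limma, Benjamini-Hochberg adjustment, threshold 0.05) covered 16086. Above this limit were 3 of the 6 members, CD69, CLEC2B and CLEC2D. KLRB1, KLRF1 and KLRG1 were below it, against 23.9% of all named probe sets. Median signals per array ran from 6.18 to 6.22, and untreated replicate 1 stood apart with a mean correlation of 0.982 with the other arrays, against 0.987 to 0.989 for the rest.

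The labelled T cell origin was checked against marker genes. All 14 T cell markers examined, among them CD3D, CD3E, CD2, CD7 and LCK, were above the dim limit, and the mean over this list was between 8.81 and 8.89 in every array. Of 11 natural killer cell markers with a probe set, 7 were above the limit and 4 (KLRD1, KLRC1, GNLY and FCGR3A) below. The mean of the natural killer list ran from 5.27 to 5.35 in untreated and from 5.26 to 5.32 in CXCL12 arrays. The 4 B cell markers had list means of 6.03 to 6.14 and 6.02 to 6.13, and the 6 myeloid markers of 4.73 to 4.85 and 4.75 to 4.86. Above the limit were 3 of the 4 B cell markers (CD79A, CD79B and PAX5) and 4 of the 6 myeloid markers (CD14, CSF1R, ITGAM and CD68), and MS4A1, LYZ and FCGR1A were below. Being above the limit therefore does not by itself tell these cell types apart, and levels of different probe sets cannot be compared. None of these 4 lists held a gene that passed the adjusted limma threshold; at an unadjusted limma p under 0.05, 4.73% of all probe sets tested and 1 of the markers, NCAM1 (log2 difference -0.35, and -0.22 without untreated replicate 1), were counted.

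For KLRB1 and CLEC2D, a receptor and its ligand encoded close together on opposite strands, the stretch before the start is shown as a description. The KLRB1 probe set was dim and that of CLEC2D was not. Whether these stretches bear on that was not tested, and levels of different probe sets cannot be compared. Both stretches are the 250 bases before the start in RefSeq's GRCh38.p14, 5′ to 3′ on the gene's own strand, with letters that match a searched motif in capitals. CLEC2D lies on the plus strand (chr12:9669463-9669712) and KLRB1 on the minus strand (chr12:9607917-9608166).
CLEC2D: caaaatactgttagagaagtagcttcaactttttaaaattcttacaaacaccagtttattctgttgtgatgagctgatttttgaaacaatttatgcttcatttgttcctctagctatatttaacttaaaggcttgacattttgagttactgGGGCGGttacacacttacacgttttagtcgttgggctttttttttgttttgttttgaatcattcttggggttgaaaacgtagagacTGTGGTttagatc
KLRB1: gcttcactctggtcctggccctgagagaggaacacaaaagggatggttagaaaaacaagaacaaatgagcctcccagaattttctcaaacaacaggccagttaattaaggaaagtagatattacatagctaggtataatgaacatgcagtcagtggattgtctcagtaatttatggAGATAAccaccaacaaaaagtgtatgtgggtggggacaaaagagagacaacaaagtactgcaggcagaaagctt

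Motifs of 7 classes were searched on both strands in 35116 such stretches. The CLEC2D stretch held a GC box (GGGCGG) 99 bases before the start, a match found in 42.6% of all stretches. It also held a RUNX match (TGTGGT) 13 bases before the start, which 11% of all stretches have. The KLRB1 stretch held a GATA match (AGATAA) 74 bases before the start, against 9.17% of all. An AP-1 site (TGACTCA, in 4.2% of all stretches) was in neither of the 2 stretches. Nor was an EGR site (GCGNGGGCG), which 8.41% of stretches hold and whose letters can overlap a GC box. A cyclic AMP response element (TGACGTCA, in 1.65%) was likewise in neither, as was a TATA box (TATAAA, in 10.7%). Guanine and cytosine made up 33.6% of the CLEC2D and 41.2% of the KLRB1 stretch, against a median of 58% over all stretches. KLRG1 has 2 starts in the table, of which the one with 63.6% guanine and cytosine held a GC box 241 bases before the start and the other, with 34.4%, held no match. The table lists stretches for 3 of the 6 members; CD69, CLEC2B and KLRF1 are not among them.

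CD69 signal separated the groups, with each CXCL12 array above all 3 untreated ones. The untreated arrays read 6.06, 5.49 and 6.15 in replicates 1, 2 and 3, and the CXCL12 arrays read 7.32, 7.04 and 7.36. Untreated replicate 2 was the lowest array of all, and the gap between the highest untreated and the lowest CXCL12 array was 0.89. The group means were 5.90 ± 0.36 and 7.24 ± 0.17 (SD, n = 3 each), a log2 difference of 1.34 (SE 0.17, 95% interval 0.96 to 1.72), or 2.53-fold. The untreated arrays spanned 0.66 and the CXCL12 arrays 0.32.

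Of the 3 members above the dim limit, CD69 passed the adjusted threshold and the other two did not, where 0.0124% of all probe sets tested passed; nothing is read from this count, because the same contrast chose CD69. Non-overlapping groups were found for 1 of these 3; the share over all probe sets tested was 9.54%. A larger difference in either direction than that of CD69 was measured for 1 probe set of the 16086. Leaving out untreated replicate 2, which holds the low value, gave a CD69 difference of 1.14, and leaving out untreated replicate 1 gave 1.42. The call was lost without untreated replicate 2 and without any 1 of the 3 CXCL12 arrays.

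**Figure D1:**
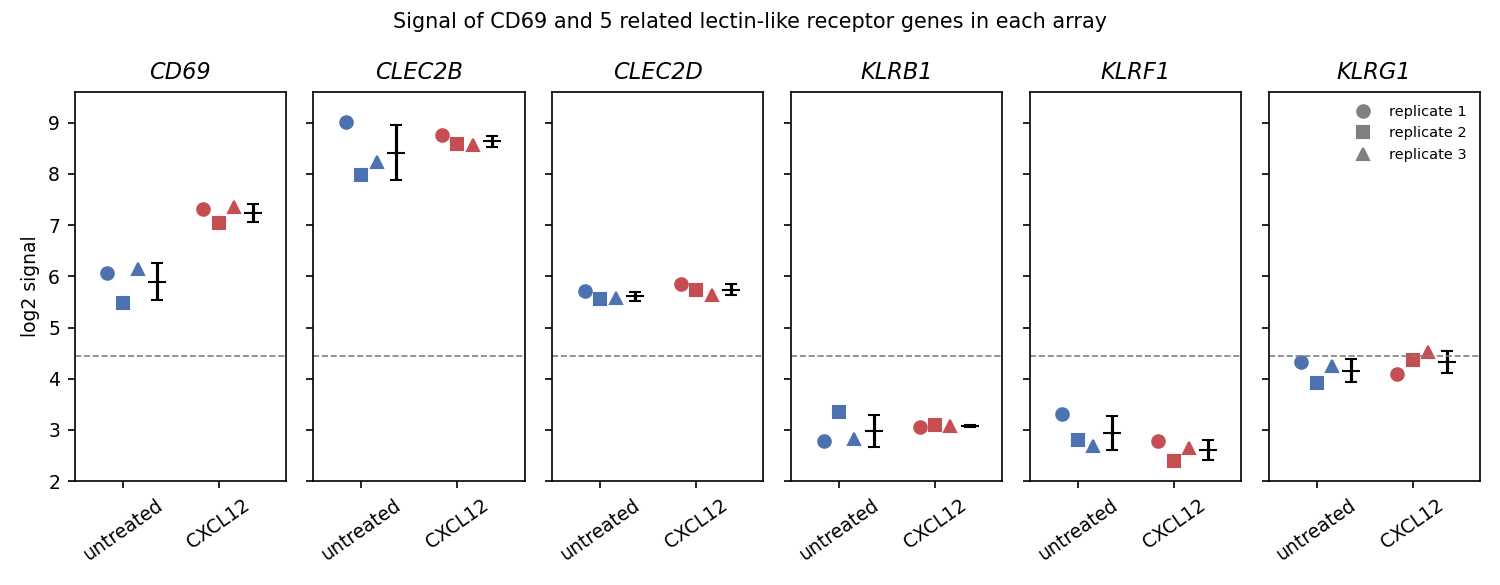
The log2 signal of each member is plotted for every array, with untreated arrays in blue, CXCL12 arrays in red and a marker shape for each replicate number; black bars are the mean ± SD of 3 arrays and the dashed line is the dim limit of 4.44. The CD69 groups are apart (5.49 to 6.15 against 7.04 to 7.36), the groups of the other 5 genes overlap, and the KLRB1, KLRF1 and KLRG1 means lie under the line.

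The CLEC2 ligands, the closest relatives of CD69 among the members, had overlapping groups. CLEC2B read 9.02, 7.99 and 8.23 in untreated replicates 1, 2 and 3, and 8.76, 8.59 and 8.56 in the CXCL12 arrays. Every CXCL12 array thus lay between the lowest 2 untreated arrays and untreated replicate 1, which was the highest of all. The means were 8.41 ± 0.54 and 8.64 ± 0.11 (SD, n = 3 each), a log2 difference of 0.23 (SE 0.21, 95% interval -0.24 to 0.69).

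The CLEC2B difference rested on single untreated arrays. It was 0.53 (SE 0.13, 95% interval 0.24 to 0.82) without untreated replicate 1, the array that stood apart over the whole table, and 0.014 without untreated replicate 2. It was 0.13 without untreated replicate 3. CLEC2B did not pass the adjusted limma threshold in any of these fits.

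CLEC2D, the ligand of KLRB1, read 5.71, 5.55 and 5.58 in untreated and 5.85, 5.73 and 5.64 in CXCL12 replicates 1, 2 and 3. CXCL12 replicates 1 and 2 were above all untreated arrays, and CXCL12 replicate 3 was below untreated replicate 1. The means were 5.61 ± 0.09 and 5.74 ± 0.10 (SD, n = 3 each), a log2 difference of 0.12 (SE 0.12, 95% interval -0.14 to 0.39). The interval corresponds to a ratio between 0.909 and 1.31, narrower than that of CLEC2B (0.847 to 1.61).

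The receptors of the killer cell lectin-like family were dim, so they were outside the filtered fit and their differences are given as measured. KLRB1, the receptor of CLEC2D, read 2.78, 3.34 and 2.82 in untreated and 3.05, 3.09 and 3.08 in the CXCL12 arrays. All 3 of these arrays lay within the untreated range, and the difference was 0.09 (SE 0.16 in the fit that kept dim probe sets). Leaving out untreated replicate 1 gave -0.0087, and leaving out untreated replicate 2 gave 0.27.

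KLRF1, the activating receptor that binds CLEC2B, read 3.32, 2.81 and 2.68 in untreated and 2.79, 2.39 and 2.66 in the CXCL12 arrays. It was the member with a negative difference, -0.33 (SE 0.17 in the fit that kept dim probe sets, 95% interval -0.70 to 0.05). CXCL12 replicates 2 and 3 were below every untreated array, and CXCL12 replicate 1 was not. The highest value was again untreated replicate 1, and the difference was -0.14 without it.

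KLRG1 lay closest to the limit, with 4.32, 3.91 and 4.25 in untreated and 4.10, 4.36 and 4.52 in the CXCL12 arrays. CXCL12 replicate 3 was the single array above 4.44, and the groups overlapped. The difference was 0.17 (SE 0.15 in the fit that kept dim probe sets, 95% interval -0.17 to 0.50), and it was 0.04 without untreated replicate 2 and 0.07 without CXCL12 replicate 3.

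The spread between arrays of one group, a measure that does not use the difference between groups, varied widely among the members. The pooled SD of CLEC2B was 0.39, larger than that of 98.2% of the 21448 probe sets, and that of CD69 was 0.28, larger than 88.8%. CLEC2D had 0.10 and exceeded 13.4%. KLRF1 (0.28), KLRB1 (0.22) and KLRG1 (0.22) exceeded 88%, 73.6% and 71.6%. The median over the table was 0.17. The spread of CLEC2B lay mostly in the untreated arrays, which spanned 1.03, against 0.20 in the CXCL12 arrays. It rested largely on untreated replicate 1: the untreated SD was 0.54 with that array and 0.17 without it.

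**Figure D2:**
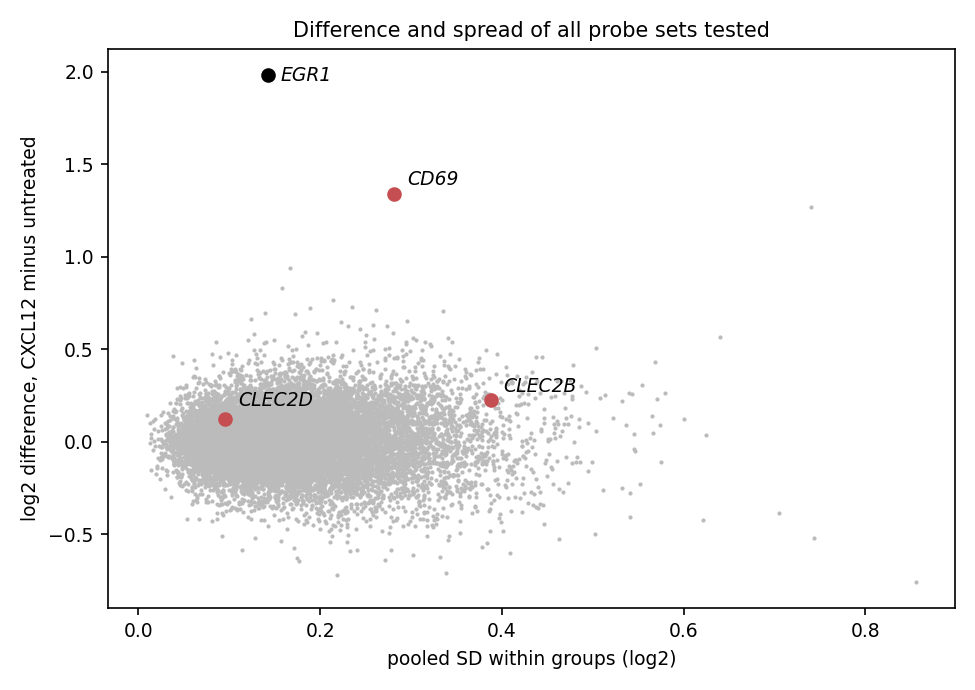
Each grey point is 1 of the 16086 probe sets tested, with its pooled SD within groups on the x axis and its log2 difference, CXCL12 minus untreated, on the y axis. CD69 (0.28, 1.34) lies above the cloud, CLEC2B (0.39, 0.23) at its wide end and CLEC2D (0.10, 0.12) at its narrow end; EGR1, in black, has the largest difference.

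Along the chromosome, no neighbour of CD69 had a difference of its size. The 15 protein-coding genes on either side of CD69 in RefSeq's order hold the other 5 members and 25 further genes, of which 22 had a named probe set. Only 6 of the 22 were above the dim limit, and 16 (72.7%) were below. Of the 6, 3 had a positive and 3 a negative difference, 0 passed the limma threshold in either direction (0 also at an unadjusted p under 0.05) and 0 had groups that did not overlap. Over all probe sets tested, 4.73% had such an unadjusted p and 9.54% had such groups. The median of the 6 was -0.02, beside 0.0023 over all probe sets tested.

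The largest differences among these 6 were those of RIMKLB, an N-acetylaspartylglutamate synthetase, at 0.20 (95% interval -0.12 to 0.52), and GABARAPL1, an autophagy protein, at -0.19 (-0.46 to 0.09). CLEC1A, a lectin-like receptor of endothelial cells, had -0.18 (-0.59 to 0.22), and TMEM52B had 0.10 (-0.19 to 0.40). The genes next to CD69 in order were CLECL1 and then CLEC2D on one side, and KLRF1 and then CLEC2B on the other. No probe set was named here for CLECL1.

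Among the dim neighbours, CLEC4D, a myeloid lectin receptor for mycobacterial lipids, had the largest measured difference, 0.60, and was named after its values were seen. It read 3.06, 3.14 and 2.64 in untreated and 3.54, 3.76 and 3.33 in the CXCL12 arrays, all below the limit of 4.44. Its 95% interval in the fit that kept dim probe sets was 0.24 to 0.95, and it did not pass there (limma adjusted p = 0.992). Groups did not overlap for 4 of the 16 dim neighbours (CLEC4D, CLEC9A and CLEC1B higher, CLEC2A lower), where the share was 9.57% of all 21448 probe sets. In that fit 0 of the 16 passed the adjusted limma threshold, and 2, CLEC4D and CLEC9A, had an unadjusted p under 0.05. In the filtered fit, 4.73% of all probe sets tested had such a p. The filtered fit holds no dim probe set, so its share is not a direct background for the 16.

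**Figure D3:**
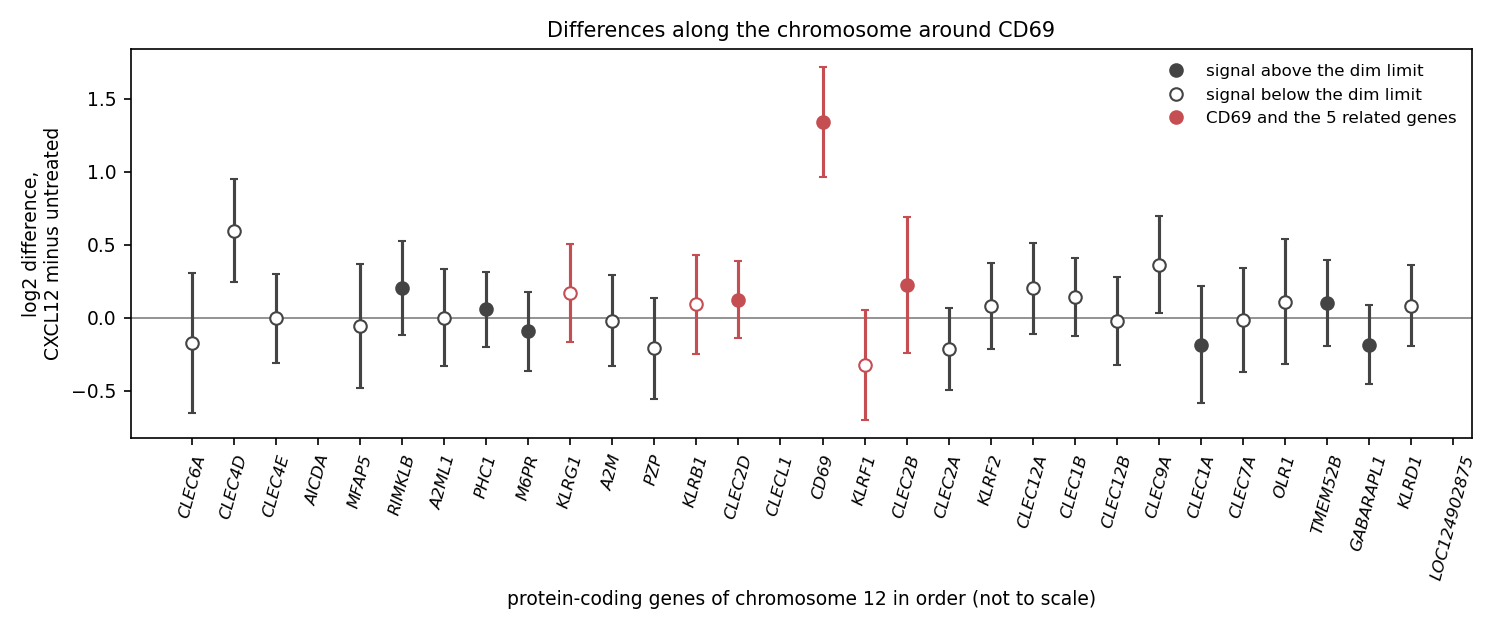
The log2 difference, CXCL12 minus untreated, is plotted with its 95% interval (limma) for CD69 and the 15 protein-coding genes on either side, in chromosomal order and not to scale; filled points are above the dim limit, open points below it, and red points are CD69 and the 5 related genes. CD69 stands at 1.34, CLEC4D at 0.60, and genes without a point have no named probe set.

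The other lectin-like genes of the complex that were listed were nearly all dim. Of 16 listed symbols, CLECL1, CLECL1P, KLRC4 and KLRK1 had no named probe set. The other 12 had one, and 11 of these were below the limit: CLEC1B, CLEC2A, CLEC7A, CLEC9A, CLEC12A, CLEC12B, OLR1, KLRC1, KLRC2, KLRC3 and KLRD1. Their group includes KLRD1 (CD94) and KLRC1 (NKG2A), which pair to form an inhibitory receptor for HLA-E. KLRD1 averaged 2.55 in untreated and 2.63 in CXCL12 arrays, and KLRC1 2.54 and 2.70. CLEC1A, the gene of this list above the limit, did not pass. CLEC1A and the dim genes other than KLRC1, KLRC2 and KLRC3 were also among the chromosome 12 neighbours given above. KLRF2, CLEC4D, CLEC4E and CLEC6A were counted among those neighbours and are not in this list.

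Genes whose products meet CD69 at the membrane, or act in sphingosine 1-phosphate signalling, showed no called change. Of 23 listed genes 21 had a probe set and 20 were above the limit. There were 10 positive and 10 negative differences, 0 passed the limma threshold in either direction, and the median was 0.0032 beside 0.0023 over all probe sets tested. At an unadjusted limma p under 0.05, 1 of the 20 (S1PR1) and 4.73% of all probe sets tested were counted. The largest difference was that of S1PR1, whose receptor protein CD69 withdraws from the surface. The values here are of RNA, and the protein was not measured. S1PR1 read 6.12, 5.88 and 5.87 in untreated and 5.74, 5.69 and 5.48 in the CXCL12 arrays.

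All 3 CXCL12 arrays were below all untreated arrays for S1PR1, 1 of the 20 genes with groups that did not overlap, where 9.54% of all probe sets tested had such groups. The log2 difference was -0.32 (95% interval -0.60 to -0.04) with a limma adjusted p of 0.996, so it did not pass, and it ran from -0.37 to -0.24 when single arrays were left out. S1PR4, another receptor of the family, had 0.26 (-0.14 to 0.66). STAT5B and STAT5A, transcription factors that have been linked to CD69 signalling, had 0.22 (-0.08 to 0.52) and 0.21 (-0.07 to 0.49).

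Among transcription factors linked to CD69 regulation, EGR1 rose and no other passed. Of 31 listed symbols, EGR2, OCT1 and POU2F1 had no named probe set. The other 28 were all above the limit, with 16 positive and 12 negative differences. Of these 28, 1 was called higher and 0 lower, where 0.0124% and 0% of all probe sets tested were. Nothing is read from this count, because the lists were chosen with earlier results of these data known. At an unadjusted limma p under 0.05, 2 of the 28 (EGR1 and JUN) and 4.73% of all probe sets tested were counted. The median was 0.06, beside 0.0023 over all probe sets tested. Whether each factor acts on CD69 in Jurkat cells was not examined. EGR1, an immediate early zinc-finger factor, read 5.94, 5.91 and 6.12 in untreated and 8.13, 7.80 and 7.98 in the CXCL12 arrays. Its difference was 1.98 (SE 0.13, limma adjusted p = 4.52e-05), and it passed in all 15 refits.

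JUN, a subunit of the AP-1 factor, read 5.50, 5.87 and 5.78 in untreated and 6.42, 6.25 and 6.54 in the CXCL12 arrays. The groups did not overlap, but its difference of 0.69 (95% interval 0.39 to 0.99) did not pass (limma adjusted p = 0.535). FOSL1 had 0.27 (-0.06 to 0.61) and JUNB 0.23 (-0.15 to 0.62), each with overlapping groups. Groups did not overlap for 3 of the 28 in the higher and 2 in the lower direction, where 5.05% and 4.48% of all probe sets tested did.

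Of the genes listed for T cell activation, those above the limit had no called change beside CD69. Of 26 listed, 23 had a probe set and 15 were above the limit, with 6 positive and 9 negative differences. The limma threshold was passed by 0 in either direction, and the median was -0.02. At an unadjusted limma p under 0.05, 1 of the 15 (CD44) and 4.73% of all probe sets tested were counted. CD44, an adhesion receptor for hyaluronan that marks activated and memory T cells, had the largest difference, -0.35 (95% interval -0.69 to -0.02, limma adjusted p = 0.996), with -0.21 without untreated replicate 2. CD47, an inhibitory ligand for phagocytes, had -0.21 (-0.51 to 0.09). LAG3, an inhibitory receptor, had 0.17 (-0.10 to 0.43) and TNFRSF18, the costimulatory receptor GITR, 0.16 (-0.11 to 0.44). The 8 dim genes of this list, outside the filtered fit, were IL2, IL2RA, IFNG, ICOS, CTLA4, HAVCR2, SLAMF1 and HLA-DRA. No probe set was named for TNF, CD40LG and PDCD1.

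**Figure D4:**
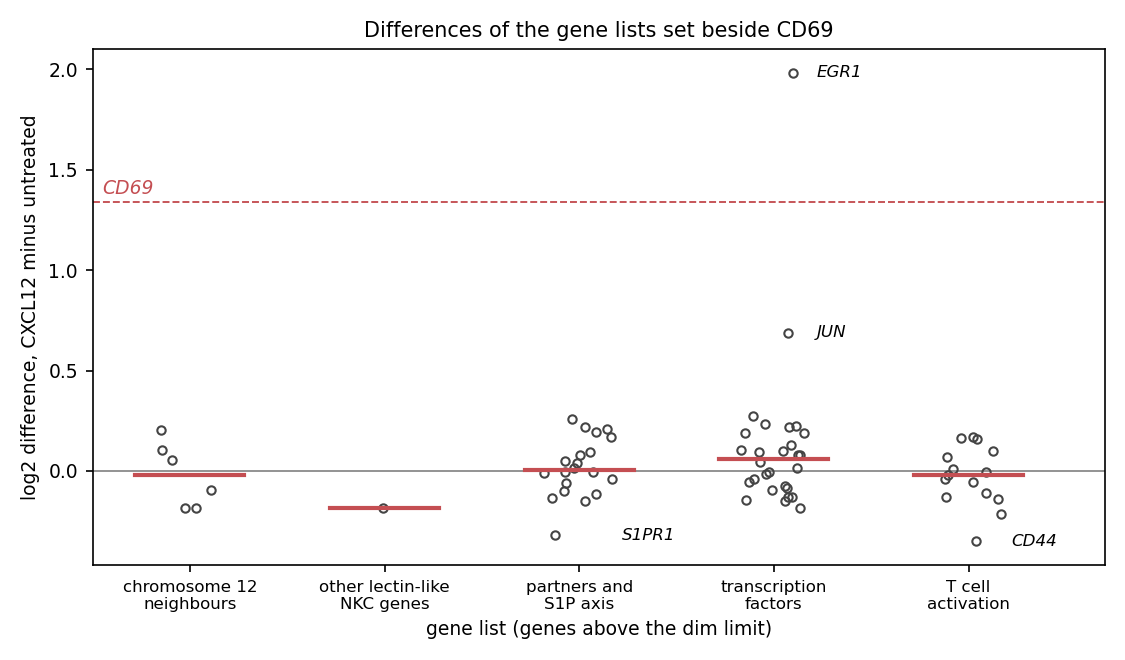
Each circle is a gene above the dim limit, with its log2 difference, CXCL12 minus untreated, on the y axis and its list on the x axis; red bars are list medians and the dashed line is the CD69 difference of 1.34. The medians lie between -0.18 (a list with 1 gene) and 0.06, and EGR1, at 1.98, is the gene above the CD69 line.

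The genes whose array pattern was most like that of CD69 were found by Pearson's r over the 6 arrays among 13454 named genes above the limit. These values are a description, because the arrays share the treatment step. A gene clearly higher in the CXCL12 arrays therefore scores high, and one clearly lower scores negative. The 6 highest were CRYBG3 (r = 0.987), HSPH1 (0.986), MYOG (0.986), ADAM33 (0.984), XKR6 (0.976) and OBP2B (0.976). Spearman's rho ran from 0.886 for MYOG to 1 for CRYBG3, HSPH1, XKR6 and OBP2B. EGR1 was in place 8 with 0.964, and 94 genes (0.699%) had an r above 0.9.

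The 6 genes differed in the size of their difference. HSPH1, a chaperone of the HSP110 family, read 9.02, 8.89 and 9.08 in untreated and 9.72, 9.50 and 9.76 in the CXCL12 arrays, a difference of 0.66 (SE 0.13). The other 5 had differences between 0.16 and 0.32. None of the 6 passed the limma adjusted threshold (adjusted p of 0.52 for HSPH1 and 0.996 for the others). Among the members, CLEC2D had an r of 0.66 with CD69 and CLEC2B 0.48, in places 975 and 2040, and S1PR1 had -0.75.

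**Figure D5:**
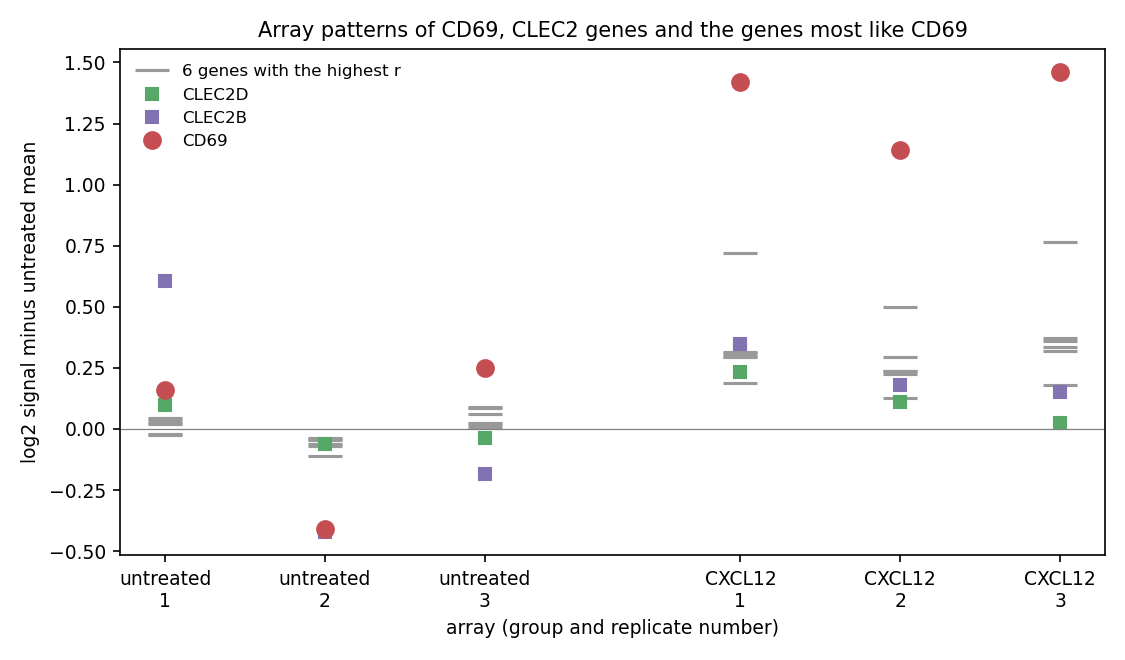
The log2 signal minus the untreated mean is plotted for each of the 6 arrays: CD69 as red circles, CLEC2B and CLEC2D as squares, and the 6 genes with the highest r as grey dashes. CD69 has its lowest value of each group in replicate 2, as HSPH1, the uppermost grey dash in the CXCL12 arrays, does; CLEC2B is highest in untreated replicate 1.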

How the data were processed

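The deposited table holds log2 signals per probe set and array, 6 columns, with no missing value and a range of 1.99 to 13.1. Per the submitters' processing notes, the authors used RMA (background correction, normalization between arrays and summary of each probe set) and the Transcriptome Analysis Console, with version, settings and genome build not given in the sources used here. Detection calls were not assessed, and the dim limit stands in for them. Precision is limited by having 3 arrays a group.

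Names come from the platform annotation: 17709 had 1 symbol, 0 several, and 3739 are unnamed here. Where a symbol had several probe sets, that with the highest mean was used. All 17687 symbols occur in RefSeq's GRCh38.p14 gene table, which was used for names and gene order. Promoter stretches are RefSeq's.

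Differences, SE and intervals came from limma's lmFit and eBayes (limma 3.58.1, R 4.3.3; a two-sided test on all 6 arrays with no covariate) on the deposited values, fitted and adjusted over all 16086 probe sets above the dim limit. For dim genes they came from the fit without that filter. The fit was checked on simulated data. Genes named were the members, the 4 with the largest difference in each list, any called gene, the 6 most like CD69, and S1PR1, EGR1 and JUN; other genes given with values (CLEC4D and other dim neighbours, KLRD1, KLRC1, NCAM1) were picked with their values in view. The members and lists were chosen with earlier results of these data known.

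Alternatives were leaving out each array, array weights, a replicate block, cyclic loess, median centring, quantile normalization, a trended robust prior, no filter or a stricter one (lower 50%), and the mean of a symbol's probe sets.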

Additional observations from a re-analysis of the deposited data

How the results depend on the processing

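CD69 kept its direction in all 15 refits (log2 difference 1.14 to 1.47) and passed in 8. The filters, the mean of probe sets, the replicate block and the trended prior cannot alter a member's difference, so direction there was fixed in advance. CD69 failed with cyclic loess, with median centring, with dim probe sets kept, and without untreated replicate 2 or CXCL12 replicate 1, 2 or 3. The count of called probe sets, 2, became 4 with array weights (CD69, EGR1, GPR3 and SGK1), 3 (CD69, EGR1 and GPR3) under the trended robust prior and under the stricter filter (lower 50%), and 1 (EGR1) without the filter, with median centring and with cyclic loess. It ran from 1 to 2 when single arrays were left out. The cause was not tested. CLEC2B ran from 0.014 to 0.53 and CLEC2D from 0.07 to 0.17. KLRF1 ran from -0.45 to -0.14 and KLRG1 from 0.04 to 0.28. Each of these 4 kept its sign in every refit that could alter the difference. KLRB1 turned sign in 1 (-0.0087, without untreated replicate 1; highest 0.27). The median of the transcription factors ran from -0.0027 (without CXCL12 replicate 2) to 0.07. With the replicate block the count was 2 and the CD69 difference 1.34; the labels state no pairing, and deviations of same-numbered arrays correlated at -0.19, -0.11 and 0.11. With 3 arrays a group, 95% intervals reached a median of 0.29 to either side, which limits what smaller differences can show.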
